A study of Mus musculus with 6 samples.

Results

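Peptides from proteins taken up by a cell are shown to CD4+ T cells on major histocompatibility complex (MHC) class II molecules, and 10 mouse genes of this route were read here out of the 25860 genes in the count table. They were listed by name, with earlier results of these data known. H2-Aa, H2-Ab1 and H2-Eb1 encode class II chains, and Cd74 encodes the invariant chain that occupies the groove of a new class II molecule. H2-DMa, H2-DMb1 and H2-DMb2 encode chains of H2-DM, which exchanges the last piece of the invariant chain for a peptide. H2-Oa encodes a chain of H2-O, an inhibitor of H2-DM. Ciita encodes the class II transactivator, and Ctss encodes cathepsin S, a lysosomal protease that trims the invariant chain.

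Class II molecules are constitutive on dendritic cells, B cells and many macrophages, and in the mouse lung alveolar type 2 cells also carry them. CIITA does not bind DNA itself. It is recruited to an enhanceosome of RFX, CREB and NF-Y proteins on the X and Y boxes in front of class II genes, and interferon gamma induces it in many cell types.

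Normal-looking lung of 12-month-old mice, described by the study as on a C57BL/6 background, was studied by RNA-seq. RAG1-/- mice (n=3, replicates 1, 2 and 3) lack the recombinase needed for antigen receptors, so that mature T and B cells are not made. RAG1-/-Sgo1-/+ mice (n=3, replicates 4, 5 and 6) carry the same loss and in addition have 1 functional copy of Sgo1, which encodes a protector of centromere cohesion whose partial loss gives chromosome instability. The animals received no treatment, both sexes were used in the study, and each library is from 1 mouse. The question is whether the class II route differs between the 2 genotypes in tissue without visible tumor.

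The libraries held 3205822 to 9366774 reads on genes, and a count of 3 equals 0.320 to 0.936 CPM (the count of a gene scaled so that each library has the same total). The alleles could not be checked from the counts, because Sgo1 had 6 reads or fewer in every library and Rag1 had 8 to 24. Replicate 2 goes against its label, with 1853 Igkc, 78 Ms4a1 and 69 Cd79a reads, where the other 5 libraries had at most 8, 0 and 2. Replicate 6 stands apart by Chil3, at 6083 CPM against 238 to 651 in the others, and by lysosomal protease genes given further on. The macrophage markers did not move together there. Cd68 (63.0 CPM) and Mrc1 (250 CPM) were highest in replicate 6, while Ear1 (20.6 CPM) and Csf1r (73.0 CPM) were lowest in it. Replicate 1 alone had Xist, the RNA that coats the inactive X chromosome of females, at 824 CPM against 0.605 to 1.62 in the others, so sex and genotype are not balanced. Without replicate 1, 5 of the 10 class II genes had an unadjusted *P* under 0.05, 4 higher (Cd74, H2-DMa, H2-DMb2 and Ctss) and 1 lower (H2-Oa).

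The promoters of several of these genes were read from the RefSeq promoter table (GRCm38.p6), because the boxes that recruit CIITA are short and can be seen in the letters. Of the 10 genes, 7 have a window of 300 bases there, 250 before and 50 after the start. H2-Ab1, Cd74 and Ciita have none. Each window was searched on both strands for the X-box half-site AGNAAC followed 15 to 35 bases later by the Y-box core ATTGG. The pair was in 3 of the 7 windows (H2-Eb1, H2-DMb1 and H2-Oa) and in 336 of 27025 genes with a window, 1.24%. These boxes are known from class II genes, so the count among the 7 is a description. The core ATTGG alone is frequent, in 41.1% of all genes and 6 of the 7. A looser rule, any 3 letters and AAC placed 25 to 28 bases before ATTGG, was tried after the first search. It was tried only on these 7 genes and on H2-Ob and H2-Eb2, further class II chain genes. Its share over all genes is therefore not known. H2-Aa and H2-DMb2 matched it, and H2-DMa and Ctss matched neither rule. H2-Ob and H2-Eb2 hold the first pair. The sequences run 5′ to 3′ on the strand of the gene and end before its start, and the capitals mark the half-site and the ATTGG core.
H2-Eb1, chr17:34305763-34305824, plus strand: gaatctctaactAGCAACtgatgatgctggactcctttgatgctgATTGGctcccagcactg
H2-Aa, chr17:34287855-34287917, minus strand: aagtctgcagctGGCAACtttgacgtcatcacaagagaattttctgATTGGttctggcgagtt
H2-DMb1, chr17:34153084-34153146, plus strand: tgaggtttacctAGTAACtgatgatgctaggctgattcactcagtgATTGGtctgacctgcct
H2-DMb2, chr17:34145113-34145175, plus strand: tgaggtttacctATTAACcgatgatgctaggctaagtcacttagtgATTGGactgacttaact
H2-Oa, chr17:34092290-34092352, plus strand: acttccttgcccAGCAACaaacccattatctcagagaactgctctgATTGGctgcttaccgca
H2-Ob, chr17:34238805-34238864, plus strand: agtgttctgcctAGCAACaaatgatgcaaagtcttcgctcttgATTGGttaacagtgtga
The spacing between the half-site and ATTGG was 25 bases in H2-Ob, 27 in H2-Eb1 and 28 in the other 4 genes shown. H2-DMb1 and H2-DMb2 match over the first 12 printed bases and differ in the half-site, AGTAAC against ATTAAC. A match of letters is a description, and occupancy of these sites was not measured.

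All 10 genes reached the minimum of 10 reads in total and were tested with the quasi-likelihood test of edgeR over 17231 genes. None of the 10 passed a Benjamini–Hochberg adjusted *P* under 0.05 with at least a 2-fold difference, and 0 genes (0%) passed in the whole table, where the smallest adjusted *P* was 0.832. DESeq2 called 1 gene, Awat1, and limma-voom called 0. At an unadjusted *P* under 0.05, 6 of the 10 were higher in RAG1-/-Sgo1-/+ (H2-Ab1, Cd74, H2-DMa, H2-DMb2, Ciita and Ctss) and 0 were lower. The same threshold took 976 of all tested genes (5.66%), of which 542 were higher (3.15%) and 434 lower (2.52%). The libraries of the 2 groups did not overlap for 3 of the 10, all higher in RAG1-/-Sgo1-/+, against 6.24% of all genes higher and 5.54% lower. H2-DMb2 and H2-DMa are in both of these counts of class II genes, and H2-Ab1 is in the first. These 3 genes lie on chromosome 17, with the limit on reads of their region given further on. The fitted log2 fold change was above 0 for 8 of the 10 and for 54.9% of all genes. Its median was 0.49 over the 10 genes and 0.034 over all tested genes. The genes were listed with earlier results of these data known, so the counts describe the list.

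**Figure D1:**
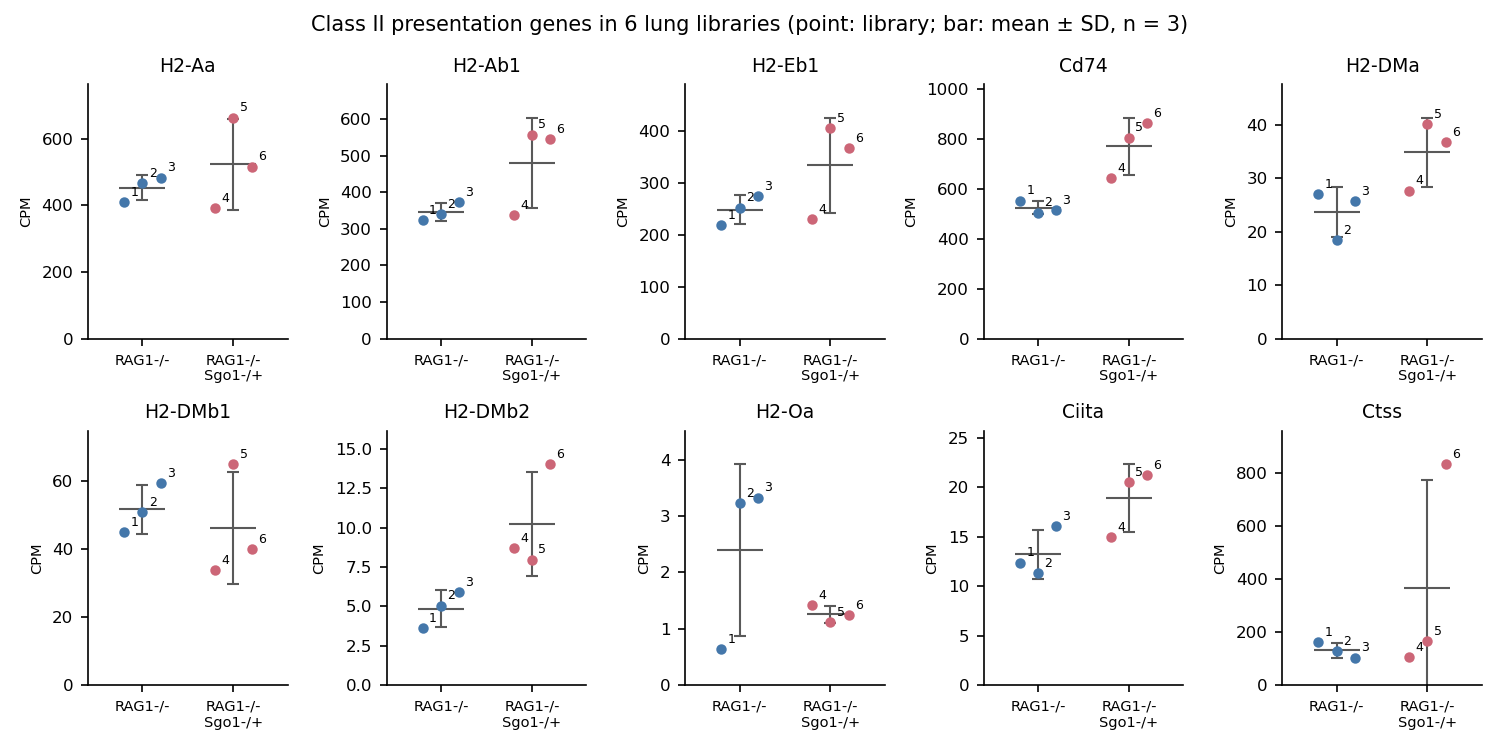
CPM (counts scaled to the library total, linear axes from 0) of the 10 class II presentation genes in each library, numbered by replicate, with bars for the mean ± SD of 3 libraries (bars that would pass below 0 are cut there). Cd74, H2-DMa and H2-DMb2 have all 3 RAG1-/-Sgo1-/+ libraries above the RAG1-/- libraries, and Ctss is high in replicate 6 alone.

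The class II chain genes were read first. H2-Ab1, which encodes the beta chain of H2-A, had 325, 341 and 373 CPM in RAG1-/- against 338, 558 and 546 in RAG1-/-Sgo1-/+. Replicate 4 lay within the RAG1-/- range, and replicates 5 and 6 lay above it. The log2 fold change was 0.47 (SE 0.19, unadjusted *P*=0.0299, edgeR adjusted *P*=0.832), and the exact permutation *P* of CPM was 0.3, where 0.1 is the smallest that 3 against 3 libraries allow. With each library left out in turn the log2 fold change was 0.35 to 0.67. The partner alpha chain, H2-Aa, had 410.5, 467 and 484 CPM in RAG1-/- against 392, 664 and 517 in RAG1-/-Sgo1-/+. Its lowest library was replicate 4 and its highest replicate 5, and the groups overlapped (log2 fold change 0.21, SE 0.18, unadjusted *P*=0.284). Without replicate 5 the H2-Aa difference was 0.00038 on the log2 scale. H2-Eb1, which encodes the H2-E beta chain, had 218, 252 and 275 CPM in RAG1-/- against 229.7, 404 and 366 in RAG1-/-Sgo1-/+. It shared the order of H2-Ab1, with replicate 4 again among the RAG1-/- values (0.43, SE 0.20, unadjusted *P*=0.0592). In bulk tissue, fewer or more class II cells and less or more RNA per cell cannot be told apart.

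H2-Ea, the H2-E alpha chain gene, had 0 reads in all 6 libraries, a level under 0.320 to 0.936 CPM by library. C57BL/6 mice are a known natural null for this chain and make no H2-E on the cell surface. H2-Ob, the beta chain of H2-O, had 4.70, 22.4 and 4.84 CPM in RAG1-/- against 1.62, 8.34 and 3.74 in RAG1-/-Sgo1-/+. The highest value was in replicate 2, the library with B cell transcripts, and the groups overlapped (-1.16, SE 0.71, unadjusted *P*=0.133). Leaving out replicate 2 brought it to -0.041. H2-Eb2, a little-expressed second beta chain gene, had 4, 26 and 4 reads in RAG1-/- against 10, 8 and 7 in RAG1-/-Sgo1-/+. It was also highest in replicate 2 and its direction depended on that library (-0.069 with it and 1.84 without it). Outside replicate 2 H2-Eb2 had 10 reads or fewer per library.

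Cd74 was higher in RAG1-/-Sgo1-/+ in every library. It had 554, 505 and 516 CPM in RAG1-/- against 642, 807 and 864 in RAG1-/-Sgo1-/+, and all 3 libraries of the second group lay above the first. The means were 525 ± 25.6 and 771 ± 115 CPM (SD, n=3), a 1.47-fold difference (log2 0.55, SE 0.14, 95% interval 0.24 to 0.87). The unadjusted *P* was 0.0028, the lowest of the 10 genes, with an edgeR adjusted *P* of 0.832 and an exact permutation *P* of 0.1. Over the alternatives in processing and the left-out libraries its log2 fold change stayed between 0.46 and 0.67, its unadjusted *P* between 0.000116 and 0.0159, and its adjusted *P* between 0.199 and 0.997.

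The chain genes were also set against Cd74 within each library. H2-Aa reads per Cd74 read were 0.741, 0.926 and 0.936 in RAG1-/- against 0.61, 0.823 and 0.598 in RAG1-/-Sgo1-/+ (exact permutation *P*=0.2). Replicates 4 and 6 had the lowest values of this ratio. The groups overlapped also for H2-Ab1 per Cd74 (exact permutation *P*=0.6) and for H2-Eb1 per Cd74 (exact permutation *P*=0.5). Between the 2 chains of H2-A the groups were apart, with 1.26, 1.37 and 1.30 H2-Aa reads per H2-Ab1 read in RAG1-/- against 1.16, 1.19 and 0.946 in RAG1-/-Sgo1-/+. The mean ratio was 1.31 ± 0.055 against 1.10 ± 0.13 (SD, n=3, exact permutation *P*=0.1). H2-Eb1 reads per H2-Ab1 read ranged only from 0.671 to 0.739 over the 6 libraries. Ctss reads per Cd74 read were 0.165 to 0.29 in 5 libraries and 0.965 in replicate 6 (exact permutation *P*=0.9). With the H2-DMb2 share given further on, 7 such ratios were formed after the values were seen, and the smallest *P* among them is the smallest the design allows.

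The peptide editing genes differed among themselves. H2-DMa, the alpha chain of H2-DM, had 27.0, 18.4 and 25.7 CPM in RAG1-/- against 27.7, 40.2 and 36.8 in RAG1-/-Sgo1-/+. The groups were apart, but replicate 4 lay above the highest RAG1-/- library by less than 1 CPM (0.55, SE 0.20, unadjusted *P*=0.0213). H2-DMb1, the more abundant beta chain gene, had 44.9, 50.9 and 59.3 CPM in RAG1-/- against 33.7, 65.0 and 39.9 in RAG1-/-Sgo1-/+. Replicates 4 and 6 were the lowest of all libraries and replicate 5 the highest (-0.15, SE 0.23, unadjusted *P*=0.517), and without replicate 4 the difference was 0.035. H2-DMb2, the second beta chain gene, had 34, 25 and 39 reads in RAG1-/- against 43, 43 and 45 in RAG1-/-Sgo1-/+, which is 3.63, 5.05 and 5.90 against 8.69, 7.97 and 14.0 CPM. All RAG1-/-Sgo1-/+ libraries were above the RAG1-/- libraries (log2 fold change 1.06, SE 0.34, unadjusted *P*=0.0103, exact permutation *P*=0.1).

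The 2 beta chain genes are close copies, and their reads were therefore also summed. Their coding sequences (GENCODE vM21 transcripts, longest open reading frame) have 786 bases each and are 95.9% identical. Reads were sequenced to 150 bases, and 72 of 637 coding windows of that length are the same in both genes. How reads that match both genes were counted is not given in the sources used here. The window with the most differences, coding bases 171 to 320 in both, is shown with the 23 differing bases in capitals, since it is where a read can best be placed.
H2-DMb1: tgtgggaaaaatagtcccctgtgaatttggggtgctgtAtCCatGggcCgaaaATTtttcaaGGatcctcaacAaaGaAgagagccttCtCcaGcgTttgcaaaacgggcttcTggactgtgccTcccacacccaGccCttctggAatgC
H2-DMb2: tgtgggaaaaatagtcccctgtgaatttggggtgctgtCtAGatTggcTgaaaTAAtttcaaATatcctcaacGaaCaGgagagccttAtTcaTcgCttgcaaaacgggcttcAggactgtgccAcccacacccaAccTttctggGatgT
H2-DMb2 took 7.47, 9.03 and 9.05% of the reads on both genes in RAG1-/- against 20.5, 10.9 and 26.0% in RAG1-/-Sgo1-/+. The 95% Wilson intervals, which cover counting error only, were 15.6 to 26.4% in replicate 4 and 20.1 to 33.0% in replicate 6, beside upper limits of 10.3 to 14.4% in the other 4 libraries. Both reads of a pair may have been counted, which makes these intervals too narrow. On halved counts they were 13.6 to 28.9% in replicate 4 and 17.5 to 35.7% in replicate 6. The upper limits in replicates 1, 2, 3 and 5 were 11.7, 14.6, 13.4 and 15.8%. The interval of replicate 4 overlapped with those of replicates 2 and 5, and the interval of replicate 6 with none of these 4. Summed, the 2 genes had 48.6, 56.0 and 65.2 CPM in RAG1-/- against 42.4, 73.0 and 54.0 in RAG1-/-Sgo1-/+. The groups overlapped, and the log2 fold change of the sum was 0.0009 (SE 0.20, unadjusted *P*=0.996). H2-DMb2 was the smaller part of the sum in every library, so the sum says little about H2-DMb2 on its own.

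Further genes of the same chromosome were read in the same libraries. In the RefSeq annotation 7 of the 10 genes lie on chromosome 17, in the order H2-Oa, H2-DMa, H2-DMb2, H2-DMb1, H2-Ab1, H2-Aa and H2-Eb1. The nearby genes B3galt4, Rps18 and H2-K1 precede them, and Sgo1 itself lies further along that chromosome. These 3 were picked after their values had been seen. H2-K1, a class I heavy chain gene, had 254, 221 and 229 CPM in RAG1-/- against 23.0, 390.3 and 31.5 in RAG1-/-Sgo1-/+. Rps18, a ribosomal protein gene, had 20.9, 32.1 and 29.1 CPM in RAG1-/- against 3.84, 25.9 and 5.61 in RAG1-/-Sgo1-/+. Both were low in replicates 4 and 6 and near the RAG1-/- level or above it in replicate 5. B3galt4, a galactosyltransferase gene, had 5.34, 6.06 and 5.45 CPM in RAG1-/- against 10.1, 8.89 and 14.3 in RAG1-/-Sgo1-/+, with all 3 RAG1-/-Sgo1-/+ libraries above the RAG1-/- libraries. What sets replicates 4 and 6 apart for H2-K1 and Rps18, and its part in the values of H2-DMb1, H2-DMb2, H2-Aa and H2-Ob, was not tested. The table counts reads that were mapped to a reference genome. Whether the mice carry the reference sequence in this region, and whether reads of these genes were lost or misplaced in mapping, was not tested. A low or a high count here, those of H2-DMb2, H2-DMa, H2-Ab1 and B3galt4 included, therefore cannot be read as expression alone.

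**Figure D2:**
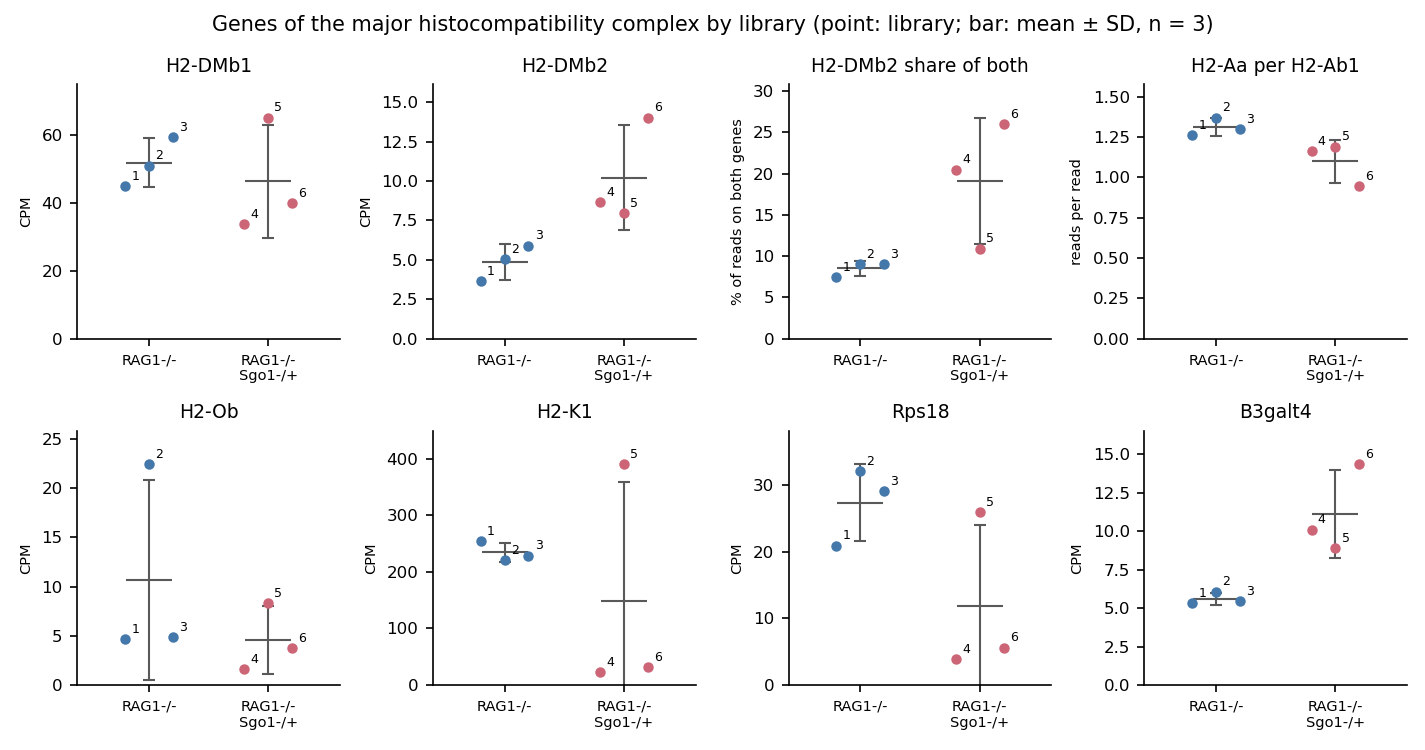
Values by library (numbered by replicate, linear axes from 0, bars for the mean ± SD of 3 libraries) of H2-DMb1, H2-DMb2, H2-Ob, H2-K1, Rps18 and B3galt4 in CPM, of the H2-DMb2 share of reads on both H2-DMb genes in percent, and of H2-Aa reads per H2-Ab1 read. Replicates 4 and 6 are low for H2-DMb1, H2-K1 and Rps18 and have the highest H2-DMb2 shares, 20.5 and 26.0%.

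H2-Oa was at the edge of detection. It had 6, 16 and 22 reads in RAG1-/- against 7, 6 and 4 in RAG1-/-Sgo1-/+, or 0.641, 3.23 and 3.33 against 1.41, 1.11 and 1.25 CPM. Replicate 1 was the lowest library and the groups overlapped (-0.89, SE 0.72, 95% interval -2.48 to 0.71, unadjusted *P*=0.244). H2-O is best known from B cells, and H2-Oa was not higher in replicate 2, where the B cell markers were, than in replicate 3.

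Ciita had 12.4, 11.3 and 16.0 CPM in RAG1-/- against 14.9, 20.6 and 21.2 in RAG1-/-Sgo1-/+. Replicate 4 fell within the RAG1-/- range and the other 2 above it, the same arrangement as for H2-Ab1 and H2-Eb1 (log2 fold change 0.51, SE 0.22, unadjusted *P*=0.0477, exact permutation *P*=0.2). With TMM or DESeq2 size factors, filterByExpr, limma-voom or DESeq2 it no longer passed the unadjusted threshold. The other 12 genes of class II transcription, the RFX, NF-Y and CREB proteins and co-activators, had log2 fold changes of -0.19 to 0.70 with a median of 0.011. Of these 12, Rfxank, a subunit of RFX, had 9.18, 9.09 and 7.57 CPM in RAG1-/- against 9.09, 16.7 and 15.9 in RAG1-/-Sgo1-/+ (0.68, SE 0.28, unadjusted *P*=0.0341). Crebbp, a histone acetyltransferase, had 12.5, 9.70 and 15.7 CPM against 16.6, 18.5 and 20.3, with the groups apart (0.53, SE 0.22, unadjusted *P*=0.0385). The remaining 10, among them those with the highest mean CPM, Kat2b, Ep300 and Creb1, did not pass that threshold, and 0 of the 12 were lower at it. Kat2b, another histone acetyltransferase gene, had the groups apart in the opposite direction to Crebbp, with 126.4, 149.5 and 139.8 CPM against 125.9, 126.1 and 111.7 (-0.19, SE 0.12, unadjusted *P*=0.151). Without replicate 2 or without replicate 6, 0 of the 12 passed in either direction. Without replicate 1, 1 was higher (Spi1, 0.98, unadjusted *P*=0.0432) and 0 were lower, and Rfxank and Crebbp did not pass.

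**Figure D3:**
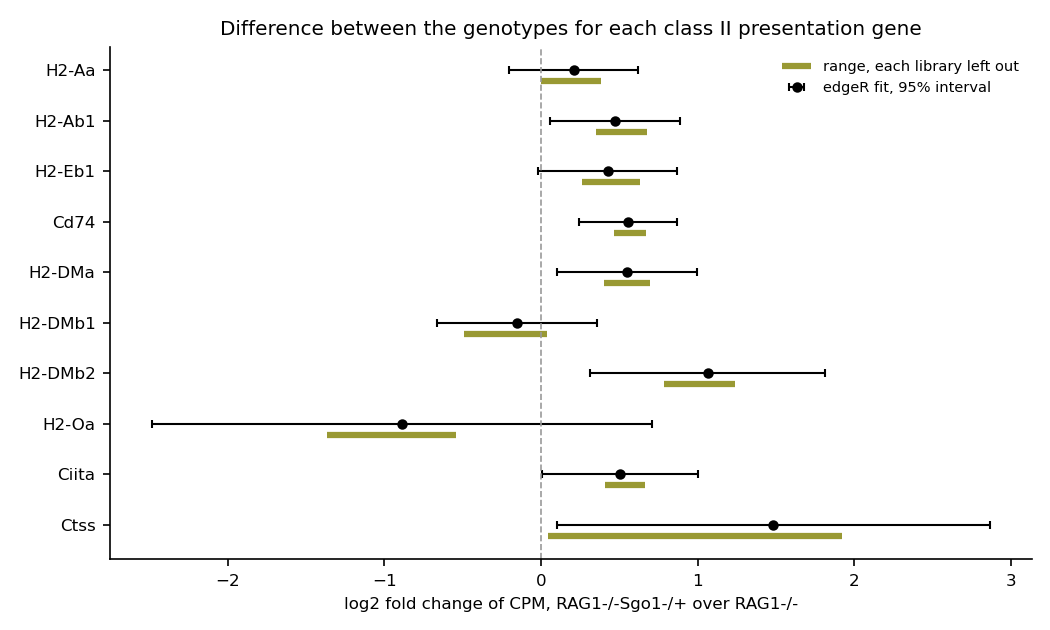
Log2 fold change of RAG1-/-Sgo1-/+ over RAG1-/- from edgeR for each gene (point, with its 95% interval) and the lowest to highest value when each of the 6 libraries is left out (thick line). Cd74 stays between 0.46 and 0.67, while the Ctss line starts at 0.044.

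The protease Ctss differed through 1 library. It had 161, 129 and 104 CPM in RAG1-/- against 106, 164 and 834 in RAG1-/-Sgo1-/+. Replicates 4 and 5 lay near the RAG1-/- values and replicate 6 far above them. The fitted difference was 1.48 (SE 0.62, unadjusted *P*=0.038) and 0.044 (unadjusted *P*=0.847) without replicate 6. Several other lysosomal proteases had the same shape. Ctsb was at 497 to 551 CPM in 5 libraries and at 1602 in replicate 6, Ctsl at 197 to 264 and at 964, Ctsk at 39.5 to 67.3 and at 441, and Ctsz at 134 to 160.1 and at 509. Ctsc did not have it, with 359 CPM in replicate 6 and 305 to 397 in the other libraries. Of the 13 genes in the list of endosomal proteases and inhibitors, 2 (Ctsk and Ctsz) were higher at an unadjusted *P* under 0.05, 0 were lower, and the median was 0.53. Without replicate 6, Ctsk was at -0.12 and Ctsz at 0.076, and 0 of the 13 passed. The summed level of the 10 alveolar macrophage markers was 558 to 1107 CPM in 5 libraries and 6683 in replicate 6, most of it Chil3. At an unadjusted *P* under 0.05, 1 of these markers was higher (Chil3) and 1 lower. Without replicate 6 Chil3 was at -0.73 (unadjusted *P*=0.0682). The latter, Siglecf, a surface lectin of alveolar macrophages, had 9.61, 11.3 and 9.08 CPM in RAG1-/- against 4.44, 5.93 and 6.24 in RAG1-/-Sgo1-/+ (-0.85, SE 0.28, unadjusted *P*=0.0114) and was at -0.94 without replicate 6. Without replicate 6, 0 of the 10 alveolar macrophage markers were higher at that threshold and 3 were lower (Siglecf, Marco and Car4). The part of alveolar macrophages in the Ctss value was not tested.

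**Figure D4:**
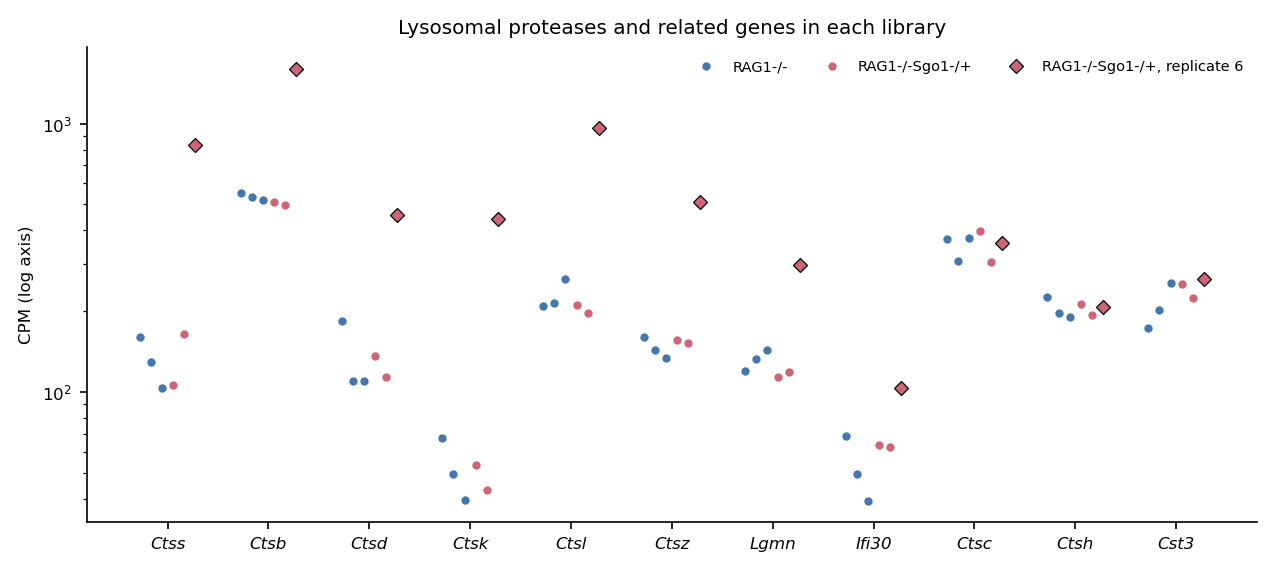
CPM (log axis) of Ctss and 10 further genes of lysosomal proteolysis in the 6 libraries, in the order of replicates 1 to 6 within each gene, with replicate 6 as a diamond. Replicate 6 is above all other libraries for Ctss, Ctsb, Ctsd, Ctsk, Ctsl, Ctsz, Lgmn, Ifi30 and, by a narrow margin, Cst3, and among them for Ctsc and Ctsh.

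Compared per kilobase of exon, the order of the levels in RAG1-/- was H2-Aa (402 ± 34.0 CPM per kb, SD, n=3), Cd74 (371 ± 18.1), H2-Ab1 (286 ± 19.98), H2-Eb1 (149 ± 17.1), Ctss (96.5 ± 21.1), H2-DMb1 (36.8 ± 5.14), H2-DMa (8.89 ± 1.74), H2-DMb2 (2.78 ± 0.657), H2-Oa (2.21 ± 1.40) and Ciita (1.61 ± 0.301). The neighbours H2-Aa and Cd74 overlapped, as did H2-DMb2 with H2-Oa and H2-Oa with Ciita, and the other neighbours were apart in all 3 libraries. In RAG1-/-Sgo1-/+ Cd74 had the highest mean (545 ± 81.4 CPM per kb), followed by H2-Aa (464.5 ± 121), H2-Ab1 (397 ± 102), Ctss (271 ± 298) and H2-Eb1 (199.8 ± 55.0), and each of these overlapped with the next. H2-DMb1 (32.9 ± 11.8), H2-DMa (13.1 ± 2.43), H2-DMb2 (5.86 ± 1.90), Ciita (2.30 ± 0.419) and H2-Oa (1.16 ± 0.139) followed without overlap.

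Over the 6 libraries the log2 CPM of H2-Ab1 and H2-Eb1 followed the mean of the other 9 genes most closely (Pearson *r* 0.95 and 0.93), then Ciita (0.88) and Cd74 (0.80). H2-DMb1 (0.076) and H2-Oa (-0.27) did not follow it. Among the genes outside the list with a mean of at least 10 CPM, those most like the mean of the 10 were Adgre1, Masp2, Sgsm2, Ssbp4 and Chn2 (*r* 0.988 to 0.992). Adgre1, the macrophage antigen F4/80, had 11.7, 13.3 and 15.4 CPM in RAG1-/- against 12.9, 17.6 and 21.2 in RAG1-/-Sgo1-/+. These are descriptions of 6 points that share their libraries and depths.

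Genes of the interferon gamma route were tested in the same fit. Of 20 genes of signalling and targets 19 were tested, 0 were higher or lower at an unadjusted *P* under 0.05, and the median log2 fold change was 0.078. The fold change was above 0 for 14 of the 19, against 54.9% of all tested genes. It ranged from -0.37 (Gbp7) to 1.64 (Cxcl9). Without replicate 6, 1 was higher (Cxcl9), and without replicate 1, 1 was lower (Gbp7). Ifng itself had 0 to 4 reads per library. The receptor chain Ifngr1 (-0.14), the kinase Jak1 (-0.038) and the transcription factor Irf1 (0.078), those with the highest mean CPM in the list, had log2 fold changes near 0. Nlrc5, the transactivator of class I genes and a relative of Ciita, had 15.5, 17.8 and 17.7 CPM in RAG1-/- against 13.3, 32.0 and 30.6 in RAG1-/-Sgo1-/+, with replicate 4 the lowest of all libraries and replicates 5 and 6 the highest (0.57, SE 0.29, unadjusted *P*=0.0793). Igtp (0.41) and Gbp4 (0.21) also had replicate 4 lowest and replicates 5 and 6 highest. Nlrc5, Igtp and Gbp4 were picked after their values were seen. The 6 tested genes of class II turnover and its ligand, among them the ubiquitin ligases Marchf1 and Marchf8, the CD74 ligand Mif and its co-receptor Cd44, had log2 fold changes of 0.077 to 0.42, and 0 passed the unadjusted threshold.

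The cells that carry class II were read from their markers. Dendritic cell markers summed to 78.0 to 93.2 CPM in RAG1-/- and to 73.3, 130.2 and 258 in replicates 4, 5 and 6, and 1 of 10, Itgax, was higher at an unadjusted *P* under 0.05. Itgax, which alveolar macrophages also express, made up 203 of the 258 CPM in replicate 6, and without that library it was at 0.44 (unadjusted *P*=0.0771). Flt3, a receptor of dendritic cells, was at 1.49, 3.64 and 2.42 CPM in RAG1-/- against 1.62, 7.59 and 3.74 in RAG1-/-Sgo1-/+, highest in replicate 5. Zbtb46, a transcription factor of conventional dendritic cells, was at 9.72, 7.27 and 17.1 CPM against 11.5, 11.9 and 8.11. Interstitial macrophage and monocyte markers summed to 289 to 363 CPM in RAG1-/- and to 322, 411 and 504 in replicates 4, 5 and 6, with Cd68 the 1 of 10 past the unadjusted threshold, at 1.497 with replicate 6 and 0.40 (unadjusted *P*=0.333) without it. In replicates 4, 5 and 6 the 10 class II genes summed to 1794, 2732 and 3240 CPM, against 1757 to 1861 in RAG1-/-, and Ctss made up 834 CPM of the sum in replicate 6. Alveolar type 2 cell markers summed to 28510 to 34990 CPM in RAG1-/- and to 32640, 27230 and 24670 in replicates 4, 5 and 6, with 0 of 10 past the threshold. The part of these cells in the class II values was not tested.

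**Figure D5:**
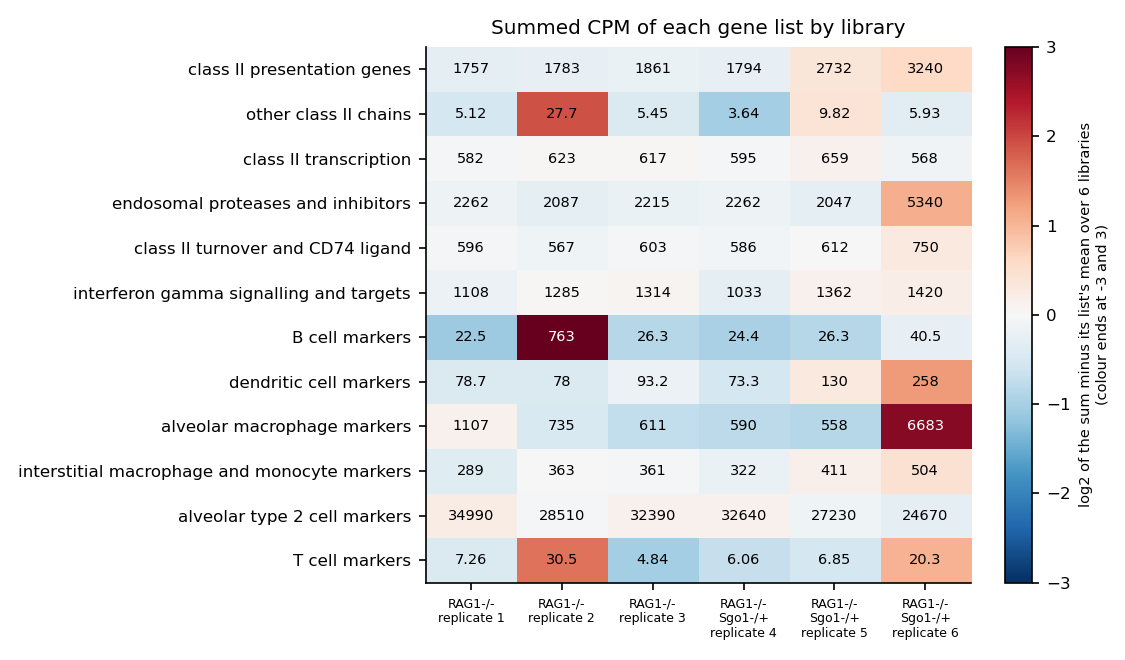
Summed CPM of each gene list in the 6 libraries, printed in the cells, with the colour giving the log2 difference from the mean of that list over the libraries. The class II sums are 1757 to 1861 CPM in RAG1-/- against 1794, 2732 and 3240 in RAG1-/-Sgo1-/+, the B cell sum is 763 in replicate 2 and 22.5 to 40.5 elsewhere, and the alveolar macrophage sum is 6683 in replicate 6. Chil3 alone makes up 6083 CPM of that last value.

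B cells carry class II, and replicate 2 held their transcripts. Of the 12 B cell markers, 12 had reads in replicate 2, and they summed to 763 CPM there and to 22.5 to 40.5 in the other libraries, where Ms4a1 was at 0. In the test 6 of 11 were lower in RAG1-/-Sgo1-/+ at an unadjusted *P* under 0.05 (among them Ms4a1, Cr2, Blk, Ighm and Igkc). Without replicate 2, 5 of the markers had enough reads to be tested and 0 passed. The class II sum in replicate 2 was 1783 CPM, between the values of the other RAG1-/- libraries. T cell markers summed to 30.5 CPM in replicate 2, to 20.3 in replicate 6 and to 4.84 to 7.26 elsewhere, with 0 of 6 past the unadjusted threshold (1 of 5, Cd3g, without replicate 2). Without replicate 2, Cd74 and H2-DMb2 were the members with an unadjusted *P* under 0.05, 2 of 10 against 3.49% of all genes. Without replicate 6 there were 3, Cd74, H2-DMa and H2-DMb2, against 4.99%. The fold changes were above 0 for 8 of the 10 in both cases.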

How the data were processed

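Total RNA of mouse lung was sequenced on an Illumina MiSeq (paired reads) and analysed by the authors in GeneSifter. The notes on processing name BWA and edgeR. The deposited table holds read counts per Entrez gene, whole numbers without normalization. Each library is listed under 2 headings with identical values in all 25860 rows, so the repeated 6 columns were not used. Between 31.0 and 36.5% of the counts above 0 were odd numbers, so halved counts were tried. The authors' list of differential genes, with their fold changes and *P* values, was not used.

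Entrez IDs were matched to RefSeq symbols (93.0%). Genes with at least 10 reads in total were tested with edgeR 4.0.16 (R 4.3.3, glmQLFTest, total count as library size). The SE is the log2 fold change over the square root of F, and intervals are 95%. CPM were compared by a two-sided exact permutation test. Levels between genes are CPM per kb of exon (GENCODE vM21), where the length is the union of exons over a gene's basic transcripts. The order of the genes therefore depends on that annotation, and the transcripts present in these lungs were not measured. Sequences were handled in Biopython 1.88.

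Alternatives were TMM, DESeq2 size factors, no filter, filterByExpr, limma-voom 3.58.1, DESeq2 1.42.0, halved counts and each library left out. Summing H2-DMb1 and H2-DMb2 and leaving out libraries for the lists were added after the data were seen, as were halved counts for the H2-DMb2 share. The members, the lists and the tests were chosen with earlier results of these data known. Besides the members, the text names, from each list, genes below an unadjusted *P* of 0.05 and at most 3 with the highest mean CPM, defining B and dendritic cell markers, and the 5 genes most like the members. Others are said to be chosen after their values were seen. *P* values measure the spread between mice. The values of 1 B cell marker are not reported here.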

Additional observations from a re-analysis of the deposited data

How the results depend on the processing

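No class II member passed the adjusted threshold under any alternative. Of all genes, 1 passed with DESeq2 and, over the left-out libraries, between 0 and 1, the 1 being H2-K1 without replicate 5. Leaving out single libraries moved the genes with an unadjusted *P* under 0.05 between 571 (without replicate 3) and 1420 (without replicate 4), with 593 without replicate 2. The members past that threshold ranged from 2 (without replicate 2) to 8 (without replicate 4), with 3 without replicate 6, 4 without replicate 5 and 5 without replicate 1. All were higher in RAG1-/-Sgo1-/+, except H2-DMb1 without replicate 5 (-0.49) and H2-Oa without replicate 1 (-1.37), which were lower. Under the other alternatives they were 4 to 7. The direction of H2-DMb1 turned to 0.035 without replicate 4 (from -0.49 to 0.035 over the left-out libraries). H2-Eb2 turned to 0.094 with halved counts, 0.99 with limma-voom, 1.84 without replicate 2 and 0.086 without replicate 5 (-0.60 to 1.84 over the left-out libraries). The other 9 members and H2-Ob kept their direction, and 8 or 9 of the tested members (9 tested with filterByExpr, otherwise 10) were above 0 under every alternative. No paired analysis was made, because the labels used here give no pairing of animals between the groups. At 3205822 reads in the shallowest library, H2-Oa, H2-Eb2 and Ifng are near the limit of 3 reads.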
